A study of Tachycineta bicolor with 30 samples.

Results

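The hypothalamus (HYPO) of female tree swallows, Tachycineta bicolor, was compared between territory establishment (TE) and incubation (INC) by mRNA sequencing. The samples were chosen by their labels alone, as the 4 HYPO libraries of TE females and the 5 HYPO libraries of INC females among the 27 libraries of the study, which also took the ventromedial telencephalon (VmT) and the hindbrain (HB) of the same birds. All were free-living adults, caught in nest boxes in the morning and given no treatment. TE females were taken early in the season while they fought over boxes, and their ovaries held small white follicles. INC females were sitting on complete clutches. Stage, date, ovarian state and nest contact changed together, so they cannot be told apart in this comparison. A further TE female had been removed from the study for degraded RNA. The HYPO piece was cut by hand to the depth of the anterior commissure, with the preoptic area and the ventromedial hypothalamus in it, so each library mixes neurons, glia, vessels and blood, and fewer cells of a type cannot be told apart from less RNA per cell.

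The hypothalamus links the brain to the pituitary. Its peptide neurons release factors such as corticotropin-releasing hormone, which drives the glucocorticoid stress axis, and gonadotropin-releasing hormone, which drives reproduction, while other peptide neurons set feeding, water balance and parental or aggressive behaviour. It also reads hormones coming back from the body, among them glucocorticoids, sex steroids, prolactin and growth hormone. In incubating birds prolactin is secreted by the pituitary under the control of hypothalamic vasoactive intestinal peptide.

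Each value is a normalized count, the number of reads of a transcript divided by a size factor of its library and not by transcript length. Values of different transcripts are therefore not comparable as levels, and stage comparisons are of 1 transcript between females. Transcripts that share a gene name are ranked by count alone. Most abundant, main and minor thus mean higher or lower count, not corrected for length. Log2 fold changes are differences of mean log2(value + 1), TE minus INC, so a positive value is higher during TE, and the added 1 makes the change of low transcripts smaller than the ratio of their means. Values per female are given in the order 85674, 85689, 85691 and 85694 for TE and 85757, 85774, 85840, 85889 and 85899 for INC. Errors are SD over 4 TE and 5 INC females, and SE is that of the log2 fold change. Stage was tested with limma in 1 fit of the 6 groups of tissue and stage, and a transcript is called differentially expressed at a Benjamini-Hochberg adjusted p of at most 0.05 over all 19473 transcripts tested of 19478 in the table. Gene names are those of the best protein match that the table gives for each transcript.

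Reads recovered from the deposited values summed to between 6001315 and 9798947 per HYPO library, with a median of 7936237. The sum of INC female 85757 was the lowest of all 27. The paper reports more mapped read pairs per sample, and the cause of that difference was not tested. Region markers set the HYPO apart from the other tissues. PMCH, the precursor of melanin-concentrating hormone and a peptide of the lateral hypothalamus, had means of 103 and 63.9 in HYPO TE and INC against 2.15 and 2.73 in VmT and 0 in every HB library. SIX6, a transcription factor of the anterior hypothalamus, had HYPO means of 29 and 13.9. NKX2-1, which specifies the ventral hypothalamus, was at 36.4 and 35.7 in HYPO but at 48.1 and 38.8 in VmT. The summed level of the 21 hypothalamus and preoptic markers found was 1824 to 3513 over the HYPO TE libraries and 1198 to 2014 over HYPO INC, against 2369 to 3570 in VmT, so that sum does not separate HYPO from VmT. Of these 21 markers, 19 had log2 fold changes above 0, CRH being the 1 called. RAX had HYPO means of 1.79 and 1.68, and GNRH1, of gonadotropin-releasing hormone, 14.9 ± 25.5 and 2.23 ± 2.26 in TE and INC. Telencephalon markers summed to 878 to 1577 in TE and 872 to 1172 in INC HYPO against at least 2755 in VmT, and HOXB3 and HOXB6 of the 15 hindbrain markers were at 0 in all HYPO libraries. Blood markers summed to 3707 to 7698 in TE and 2308 to 4046 in INC, pituitary markers to 162 to 387 and 225 to 979, and ependyma and choroid plexus markers to 7276 to 14758 and 5883 to 22220. Their part in the stage differences was not tested.

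In HYPO, 100 transcripts (0.514% of those tested) were differentially expressed, 57 higher during TE and 43 higher during INC. The direction of these calls differed with the level of the transcript. Among the 11797 transcripts with a mean of at least 50 over the 27 libraries, 48 (0.407%) were called, and 46 of them (0.39%) were higher during TE and 2 (0.017%) during INC. Among the 7676 below that limit, 52 (0.677%) were called, 11 (0.143%) higher during TE and 41 (0.534%) higher during INC. At an unadjusted p under 0.05 the split at a mean of at least 50 was 867 higher during TE (7.35%) and 439 higher during INC (3.72%), and over all levels it was 1483 (7.62%) and 1279 (6.57%). The median log2 fold change was -0.0055 over all transcripts tested and -0.0023 at a mean of at least 50. Scaling by a size factor tends to set such a median near 0, so it cannot show where the tilt lay. The values of the TE and INC females did not overlap for 47 of the 48 and 40 of the 52, against 5.35% and 5.88% of all transcripts tested at those levels. Together these were 87 of the 100, against 5.56%. The call closest to the limit of 50 from below was MRPL43, with a mean of 49.8, and from above FASTK, with 69.3.

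**Figure D1:**
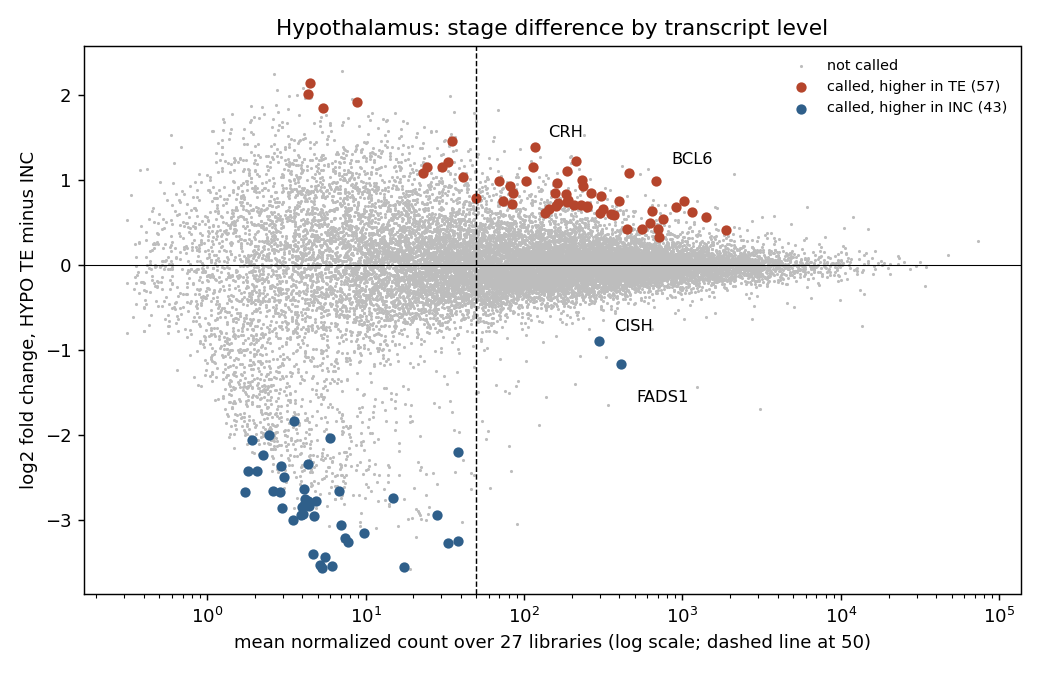
Log2 fold change of each transcript in HYPO, TE minus INC, against its mean normalized count over 27 libraries (log scale), with the dashed line at 50. Red points are the 57 transcripts called higher in TE and blue points the 43 called higher in INC. Right of the line 46 of 48 called transcripts lie above 0, and left of it 41 of 52 lie below 0.

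The count of calls depended on single females. Without 1 HYPO library at a time it was 40, 11, 6 and 20 for TE females 85674, 85689, 85691 and 85694, and 784, 68, 20, 5 and 16 for INC females 85757, 85774, 85840, 85889 and 85899. It also moved with libraries of the other tissues, which share the estimate of spread, to 272 without HB TE 85694, 52 without HB INC 85774, 285 without VmT INC 85757 and 197 without VmT INC 85889. With the female fitted as a block, since each bird gave a library per tissue, 40 transcripts were called, all of them among the 100. None of the 100 changed sign in any of these fits. STX5, BCL6 and FADS1 at a mean of at least 50, and PLCB4 below it, kept their call in all 27 fits that left out a library.

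BCL6, a transcriptional repressor best known from B cells that also acts in neuron formation, had the lowest p among the abundant transcripts. Its normalized counts were 1208, 1090, 965 and 816 in the TE females and 514, 486, 498, 569 and 466 in the INC females. Every TE value lay above every INC value, and the means of 1020 ± 168 and 507 ± 39.3 gave a log2 fold change of 0.996 (SE 0.15, limma Benjamini-Hochberg adjusted p = 0.00564). Without any 1 HYPO library its adjusted p was at most 0.0371. Counts of called members in the gene lists below are to be read beside the 0.293% of all transcripts called higher during TE and the 0.221% called higher during INC, and list medians beside -0.0055. List counts at an unadjusted p under 0.05 go beside 7.62% in the TE and 6.57% in the INC direction. In these lists a gene is its most abundant transcript, so calls of its less abundant transcripts are not counted. Of the 11 genes of BCL6 corepressors and related POZ factors tested, BCL6 itself was the 1 called, and the list's median log2 fold change was 0.06. BCORL1, a corepressor partner, stood at a log2 fold change of 0.35 and did not pass (adjusted p = 0.274). In VmT and HB the log2 fold changes of BCL6 were 0.29 (adjusted p = 0.371) and 0.47 (adjusted p = 1), and the difference from VmT had an adjusted p of 0.0526.

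CRH encodes corticotropin-releasing hormone, the peptide at the head of the stress axis. It was at 115, 229, 150 and 153 in the TE females and at 67.6, 58.6, 112, 62.7 and 58 in the INC females. The groups stood apart by a narrow gap, between TE female 85674 at 115 and INC female 85840 at 112. Means of 161 ± 47.9 and 71.8 ± 22.9 gave a log2 fold change of 1.16 (SE 0.22, limma adjusted p = 0.0144). The call was lost when the HYPO library of 85689, 85691, 85694, 85889 or 85899 was left out, with an adjusted p of up to 0.0727. CRH mRNA was present in the other tissues too, at means of 155 and 109 in VmT and 129 and 81.3 in HB for TE and INC, and its log2 fold changes there were 0.52 (adjusted p = 0.228) and 0.69 (adjusted p = 1).

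The rest of the stress axis did not pass the test. Of 12 stress axis and corticosteroid genes tested, CRH was called and the list's median log2 fold change was 0.20. The glucocorticoid receptor NR3C1 was at 1757, 842, 1305 and 993 in TE and at 808 to 1082 in INC, a log2 fold change of 0.38 (adjusted p = 0.349). The mineralocorticoid receptor NR3C2, which binds the same hormone with higher affinity, was at 107 ± 10.1 and 133 ± 10.6, a log2 fold change of -0.31 (adjusted p = 0.332). CRH receptors CRHR1 and CRHR2 had log2 fold changes of 0.17 and -0.07, and CRHBP, the secreted protein that binds and neutralises CRH, had 0.16. The glucocorticoid-responsive genes TSC22D3, KLF9 and SGK1 had log2 fold changes of 0.23, 0.02 and -0.03, none of them called.

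DUSP4, a nuclear phosphatase that switches MAP kinases off, was at 345, 441, 405 and 357 in TE females and at 238, 195, 219, 190 and 229 in INC females. No INC value reached the TE range, and the log2 fold change was 0.85 (SE 0.16, limma adjusted p = 0.0144), a call that was lost without 85689, 85691 or 85889. Among 18 MAP kinase feedback genes DUSP4 was the 1 called, 15 had log2 fold changes above 0 and the median was 0.07. SPRY4, an inhibitor of receptor tyrosine kinase signalling, was at 290 ± 27.1 and 227 ± 8.69 (log2 fold change 0.35, not called at an adjusted p of 0.261). None of 22 genes of the MAP kinase cascade itself was called, with a median of -0.04. Of 20 immediate early genes, which neurons transcribe within minutes of activity, none was called, although 18 had log2 fold changes above 0, 6 had an unadjusted p under 0.05 in the TE direction and the median was 0.38. KLF10 was at 94.2, 150, 100 and 73.8 in TE and 54.9, 62.6, 52, 66.9 and 64.9 in INC, a log2 fold change of 0.74 (adjusted p = 0.058). EGR3, an activity-induced zinc finger factor, had overlapping females and a log2 fold change of 1.47 with an adjusted p of 0.139.

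CISH, a feedback inhibitor of cytokine receptors that is induced by STAT5 downstream of prolactin and growth hormone, was 1 of the 2 abundant transcripts higher during INC. It was at 174, 158, 160 and 180 in TE females and at 346, 335, 285, 296 and 304 in INC females. Both groups were tight and lay far apart, at 168 ± 10.7 and 313 ± 26.4, a log2 fold change of -0.89 (SE 0.15, limma adjusted p = 0.0101). Leaving out TE female 85691 moved the adjusted p to 0.053, and no other HYPO library ended the call. In VmT and HB its log2 fold changes were -0.27 (adjusted p = 0.425) and -0.45 (adjusted p = 1), and the HYPO difference was not shown to differ from that of VmT (adjusted p = 0.093).

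Of 19 genes of prolactin, growth hormone and JAK-STAT signalling, CISH was the 1 called, and the median log2 fold change was -0.04. The prolactin receptor PRLR was at 738, 687, 882 and 1075 in TE and 773, 903, 913, 815 and 880 in INC, overlapping ranges with a log2 fold change of -0.04 (adjusted p = 0.949). The growth hormone receptor GHR had -0.15 (adjusted p = 0.868). SOCS2, another STAT5-induced inhibitor, was at 72.6, 43.4, 48.2 and 45.3 in TE and 63.4, 68.7, 67.6, 77.3 and 60.6 in INC, where TE female 85674 lay in the INC range (log2 fold change -0.39, adjusted p = 0.299). STAT5B, the transcription factor of this pathway, had a positive log2 fold change of 0.28 (adjusted p = 0.132). PREB, a regulator of prolactin transcription, was at 99.1 to 109 in TE and 41.8 to 72.7 in INC without overlap (log2 fold change 0.91, adjusted p = 0.124). Prolactin mRNA itself, PRL, was near 0 in most HYPO libraries but reached 63.7 in INC female 85889 and 9.86 in 85757, beside the pituitary marker sums given above.

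**Figure D2:**
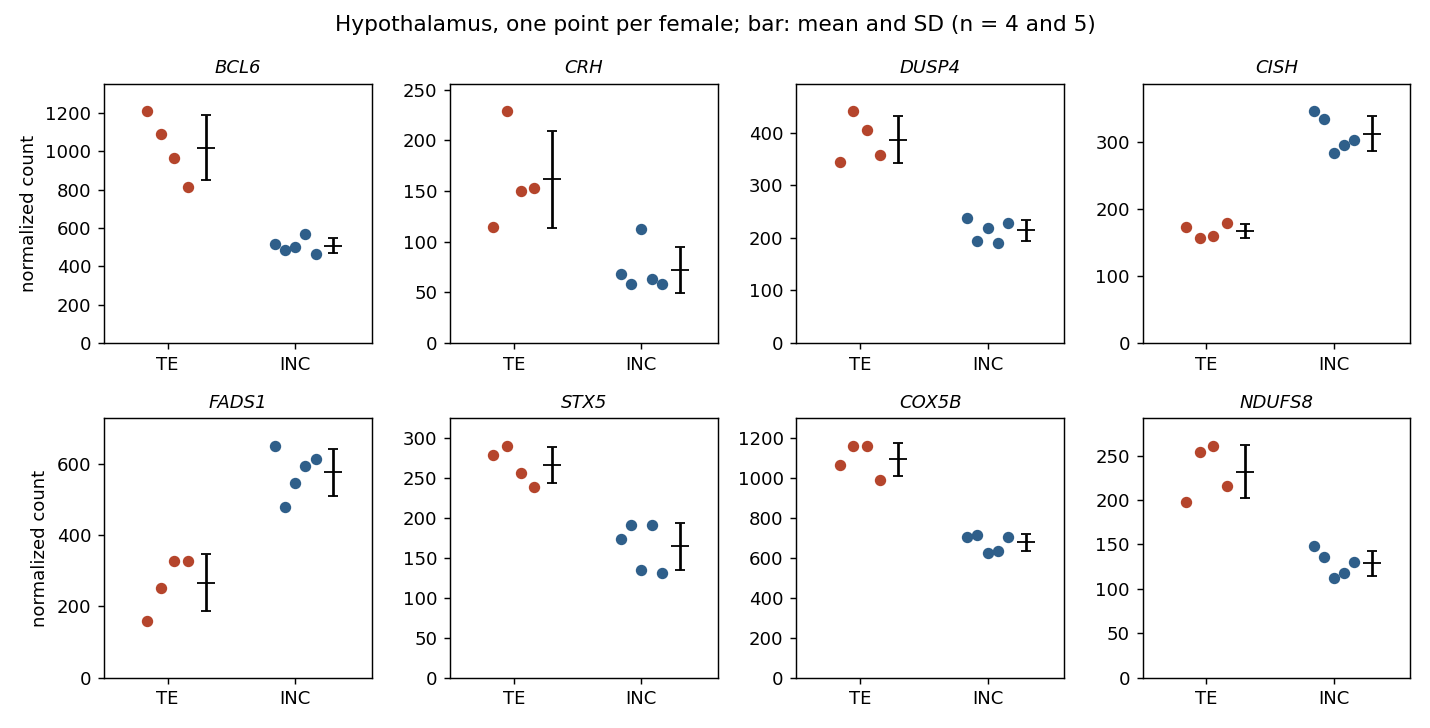
Normalized counts of 8 genes in HYPO, 1 point per female, with the mean and SD of each group (TE, n = 4, red; INC, n = 5, blue). BCL6, CRH, DUSP4, STX5, COX5B and NDUFS8 are higher in every TE female than in any INC female, and CISH and FADS1 are lower in every TE female.

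FADS1, the desaturase that makes arachidonic and eicosapentaenoic acid, was the other abundant transcript higher during INC. Its counts were 159, 250, 328 and 326 in TE females and 649, 478, 545, 592 and 614 in INC females. The lowest INC female lay well above the highest TE female, and the log2 fold change was -1.16 (SE 0.19, limma adjusted p = 0.00834). No left-out HYPO library ended the call (adjusted p up to 0.0397). The same direction was called in VmT, at -0.99 (adjusted p = 0.00331), and in HB, at -1.28 (adjusted p = 0.00452), where it was the single transcript called (0.00514% of those tested), and the HYPO change was not shown to differ from that in VmT (adjusted p = 0.848). Of 22 genes of fatty acid desaturation and elongation FADS1 was the 1 called, 15 had log2 fold changes below 0, and the median was -0.06. ELOVL2, which elongates the products of FADS1, was at 2462 ± 167 and 2877 ± 280 (log2 fold change -0.22, adjusted p = 0.296). Of 21 cholesterol synthesis genes none was called, with a median of 0.03, and EBP, a sterol isomerase, had the lowest p, at 136 ± 17.7 and 65.3 ± 7.65 (log2 fold change 1.04, adjusted p = 0.0748).

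Several genes of the mitochondrion were among the abundant transcripts higher during TE. COX5B, a nuclear-encoded subunit of cytochrome c oxidase, was at 1064, 1161, 1161 and 993 in TE females and 704, 717, 627, 637 and 705 in INC females, with no overlap and a log2 fold change of 0.69 (SE 0.13, limma adjusted p = 0.0153). Complex I, which takes electrons from NADH, gave 3 calls. NDUFS8, an iron-sulfur subunit, was at 197, 254, 261 and 216 in TE and 148, 135, 112, 118 and 131 in INC (log2 fold change 0.84, adjusted p = 0.0189). NDUFV1, which holds the NADH binding site, was at 668 ± 90.4 and 313 ± 42.9 (1.09, adjusted p = 0.046), and the accessory subunit NDUFA7 at 309 ± 35.9 and 193 ± 26.1 (0.68, adjusted p = 0.0392). All 4 separated the TE from the INC females.

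Over all 66 genes of the respiratory chain and ATP synthase tested, these 4 were called higher during TE and 0 during INC. At an unadjusted p under 0.05, 21 were higher during TE and 7 during INC, against 7.62% and 6.57% of all transcripts, and the list's median log2 fold change was 0.11. With the female as a block 2 of the 4 were called, NDUFA7 and NDUFV1 having adjusted p of 0.0522 and 0.0691. Of 21 mitochondrial import genes 2 were called, with a median of 0.11. TIMM10, a chaperone of the intermembrane space, was at 115 ± 8.88 in TE and 60.4 ± 10 in INC, without overlap (log2 fold change 0.93, limma adjusted p = 0.0153), and TIMM50, a receptor of the inner membrane translocase and a transcript below the limit, was at 36.3 ± 5.73 and 15.8 ± 2.66 (1.15, adjusted p = 0.046, and 0.0668 with the block). Of 69 mitochondrial ribosome genes MRPL43 was called, at 63.6 ± 4.24 and 36.7 ± 5.07 (0.79, adjusted p = 0.0364, and 0.0522 with the block). Of these 69, 13 had an unadjusted p under 0.05 in the TE direction and 0 in the INC direction, beside a median of 0.08, and MRPS12 came closest to a call, at 81.2 ± 15.1 and 39.7 ± 6.53 (1.01, adjusted p = 0.0571). FASTK, founder of a family of mitochondrial RNA-binding proteins, was at 106 ± 14 and 53.1 ± 9.5 (0.996, adjusted p = 0.0305). MTFR1L, a regulator of mitochondrial shape, had a smaller and very even difference, 480 to 525 in TE and 361 to 390 in INC (0.42, adjusted p = 0.0365).

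Of 35 splicing and RNA processing genes 3 were called, all higher during TE, with a list median of 0.12. With the block 2 of the 3 were called, and of the 35, 8 had log2 fold changes below 0. Less abundant transcripts of 2 other members were called in opposite directions, that of DDX17 higher during INC and that of CHTOP higher during TE. RBM4B, a splicing regulator, was at 343, 265, 296 and 267 in TE and 177, 155, 97.7, 126 and 131 in INC (log2 fold change 1.11, limma adjusted p = 0.0376, and 0.0636 with the block). SRRT, which joins the cap-binding complex to RNA processing, was at 200 ± 39.1 and 122 ± 11.3 (0.70, adjusted p = 0.0222). ILF2, a subunit of a complex that binds double-stranded RNA, was at 445 ± 14 and 294 ± 39 (0.61, adjusted p = 0.0365). In each of the 3 the TE and INC females were apart. A transcript matched to a HEXIM1-like protein, HEXIM1 being an inhibitor of the transcription elongation kinase P-TEFb, was at 236, 231, 240 and 180 in TE and 117 to 146 in INC (0.73, adjusted p = 0.0305). A transcript matched to a translation initiation factor IF-2-like protein had 251, 387, 315 and 460 in TE against 131 to 162 in INC (1.23, adjusted p = 0.0189).

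Of 25 genes of SWI/SNF and related chromatin remodellers 3 were called by their most abundant transcript, all higher during TE. The list's median was 0.03. Of the 3, ACTL6B was the 1 called with the block, KANSL2 having an adjusted p of 0.0536 and BRD8 of 0.0522. Less abundant transcripts of BRD7, another member, were called higher during INC (-2.96 and -2.24, limma adjusted p of 0.0124 and 0.0437). ACTL6B, the actin-like subunit of the SWI/SNF complex that is specific to neurons, was at 265, 275, 304 and 296 in TE females and 196, 189, 156, 173 and 158 in INC females (log2 fold change 0.71, limma adjusted p = 0.0144). KANSL2, of the NSL histone acetyltransferase complex, was at 107 ± 6.08 and 65.6 ± 11.8 (0.72, adjusted p = 0.0376). BRD8, of the NuA4 acetyltransferase complex, had the smallest log2 fold change among the abundant calls, 0.33, from 779 ± 19.5 and 623 ± 52.7 (adjusted p = 0.0392). Of 29 nuclear receptors of the retinoid, thyroid and orphan groups RXRA was called, the partner with which thyroid, retinoid and vitamin D receptors bind DNA. It was at 166, 179, 146 and 180 in TE and 108, 127, 97.7, 103 and 109 in INC, without overlap (0.62, adjusted p = 0.0437, and 0.0652 with the block), beside a list median of 0.13. NR2F1, an orphan receptor of neuronal patterning, was at 174 ± 23.4 and 103 ± 18.6 and did not pass (0.76, adjusted p = 0.0589).

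Single genes of membrane traffic and protein turnover were also among the 46. STX5, the syntaxin of traffic between endoplasmic reticulum and Golgi, was at 280, 290, 257 and 240 in TE and 173, 192, 135, 191 and 131 in INC (log2 fold change 0.71, limma adjusted p = 0.0101). DTX4, a ubiquitin ligase of the Deltex family that acts in Notch signalling, was at 433 ± 32.4 and 276 ± 50.4 (0.66, adjusted p = 0.0144). Both had no overlap between stages. PSMD3, of the proteasome lid, was the 1 called of 31 proteasome genes, at 645 ± 54.7 and 479 ± 25 (0.43, adjusted p = 0.0474, and 0.064 with the block), with a list median of 0.07, and PSMB6, a catalytic subunit, was at 261 ± 41.6 and 139 ± 21.2 (0.91, adjusted p = 0.058).

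MARCKSL1, a membrane-bound actin regulator, had the largest log2 fold change of the 46, 1.39 (SE 0.30, limma adjusted p = 0.0312), from 174, 201, 259 and 242 in TE and 115, 90.9, 82.1, 52.2 and 81.4 in INC. Its groups did not overlap. Of 27 actin regulators and thymosins 3 were called higher during TE and 2 higher during INC, with a median of 0.06. With the block 1 in each direction was called, MARCKSL1 and TMSB4X. The others higher during TE were GIT1, an ARF GTPase-activating scaffold of synapses, at 539 ± 38.9 and 321 ± 52.3 (0.76, adjusted p = 0.0392), and ARHGAP44, a GTPase-activating protein of dendritic spines, at 150 ± 45.8 and 73.6 ± 17.1 (0.99, adjusted p = 0.046). ARHGAP44 was the exception to separation, since TE female 85689 at 98.3 fell below INC female 85757 at 101. TUBA8, an alpha tubulin, was at 269 ± 40.1 and 159 ± 30.5 (0.76, adjusted p = 0.0305, and 0.0536 with the block). It was the 1 called of 34 tubulins and microtubule proteins, a list with a median of -0.0053. At an unadjusted p under 0.05, 4 of the 34 were higher during TE and 9 during INC.

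Several membrane and synaptic proteins were among the 46 as well. LGI3, a secreted leucine-rich repeat protein of neurons, was at 1321, 1814, 1541 and 1534 in TE and 1100, 1171, 743, 944 and 1087 in INC (log2 fold change 0.63, limma adjusted p = 0.0305). SHISA4, a transmembrane protein of the Shisa family, was at 355 ± 27.2 and 187 ± 34.5 (0.94, adjusted p = 0.0182). HIP1, an adaptor of clathrin-coated pits, had the highest counts of the members of the 46 named here, 2229 ± 150 and 1678 ± 127 (0.41, adjusted p = 0.0392). TMEM59L, at 1544 ± 234 and 922 ± 175 (0.75, adjusted p = 0.0376), and WSCD2, at 420 ± 40.6 and 240 ± 37.7 (0.81, adjusted p = 0.0365), are membrane proteins of the brain. All 5 were without overlap. Over the 46, log2 fold changes ran from 0.33 to 1.39 with a median of 0.72. INC female 85757 had the highest INC value for 25 of the 46.

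Single-library fits and the block bore on this group as follows. Of the 46, 14, 3, 2 and 8 stayed called without TE females 85674, 85689, 85691 and 85694, and 46, 33, 5, 2 and 5 without INC females 85757, 85774, 85840, 85889 and 85899. With the female as a block 18 of the 46 and both abundant INC-higher transcripts were called. Under the block the adjusted p was 0.00389 for BCL6, 0.0168 for CRH, 0.013 for DUSP4 and 0.02 for COX5B. Of the other members of the 46 named here, the HEXIM1-like transcript, WSCD2, TMEM59L, HIP1, GIT1 and ARHGAP44 were not called with the block (adjusted p from 0.0513 to 0.0652), besides those given above.

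Apart from CRH, the peptides of the hypothalamus did not pass the test, and their levels varied widely between females of a stage. Of 9 releasing hormones and nonapeptides tested 1 was called, with a median log2 fold change of -0.07, and of 16 feeding and energy genes and 14 opioid and other peptide genes none was, with medians of 0.08 and 0.10. Vasotocin, the avian counterpart of vasopressin and matched here as AVP, was at 442, 478, 498 and 963 in TE and 559, 428, 180, 308 and 49.3 in INC. The stages overlapped, TE female 85694 stood high and INC female 85899 low, and the log2 fold change of 1.28 had an SE of 0.57 (limma adjusted p = 0.289). Its receptor AVPR1A, which takes part in social behaviour, was at 252, 392, 313 and 407 in TE and 428, 510, 556, 426 and 485 in INC. These ranges did not overlap, with INC the higher, but the log2 fold change of -0.51 did not pass (adjusted p = 0.117).

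PDYN, the precursor of dynorphins, was at 212, 201, 296 and 615 in TE and 141, 160, 124, 112 and 88.3 in INC. The ranges were apart and TE female 85694 was again the highest, with a log2 fold change of 1.27 (SE 0.34, limma adjusted p = 0.0702). Without the 3 libraries of female 85757, a fit that called 923 transcripts in place of 100, its adjusted p was 0.037. Other transcripts not called in the main fit, CHGB, GABBR1 and MANF among them, also passed there. PENK, the enkephalin precursor, did not separate the stages, at 2132 to 4280 in TE and 3548 to 3883 in INC (-0.24, adjusted p = 0.69). Opioid receptors OPRK1, OPRD1, OPRM1 and OPRL1 had log2 fold changes of -0.34, 0.10, -0.09 and -0.02, none called. CHGB, a granin of secretory vesicles, had the largest negative log2 fold change of the opioid and other peptide list, -2.14 (adjusted p = 0.0807), with 18.3 to 37.5 in TE and 28.2, 122, 149, 189 and 176 in INC, where female 85757 lay in the TE range.

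Vasoactive intestinal peptide, VIP, which drives avian prolactin release, was at 562, 1268, 1197 and 1229 in TE and 1041 to 1493 in INC, overlapping ranges with TE female 85674 the lowest (log2 fold change -0.20, limma adjusted p = 0.826). NPVF, the precursor of gonadotropin-inhibitory hormone, ran from 240 to 905 in TE and from 515 to 1032 in INC (-0.41, SE 0.95, adjusted p = 0.914). Somatostatin (SST), GHRH and PACAP (ADCYAP1) had log2 fold changes of -0.07, -0.18 and -0.02. Feeding peptides spread over both sides of 0 without a call, among them PMCH at 0.79 (SE 0.65), galanin (GAL) at 0.48 (SE 0.58), NPY at 0.27 (SE 0.26), CCK at 0.20 (SE 0.23) and CARTPT at 0.08 (SE 0.25). INC female 85899 had the lowest INC value for AVP, NPY, GAL, PMCH and PDYN.

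**Figure D3:**
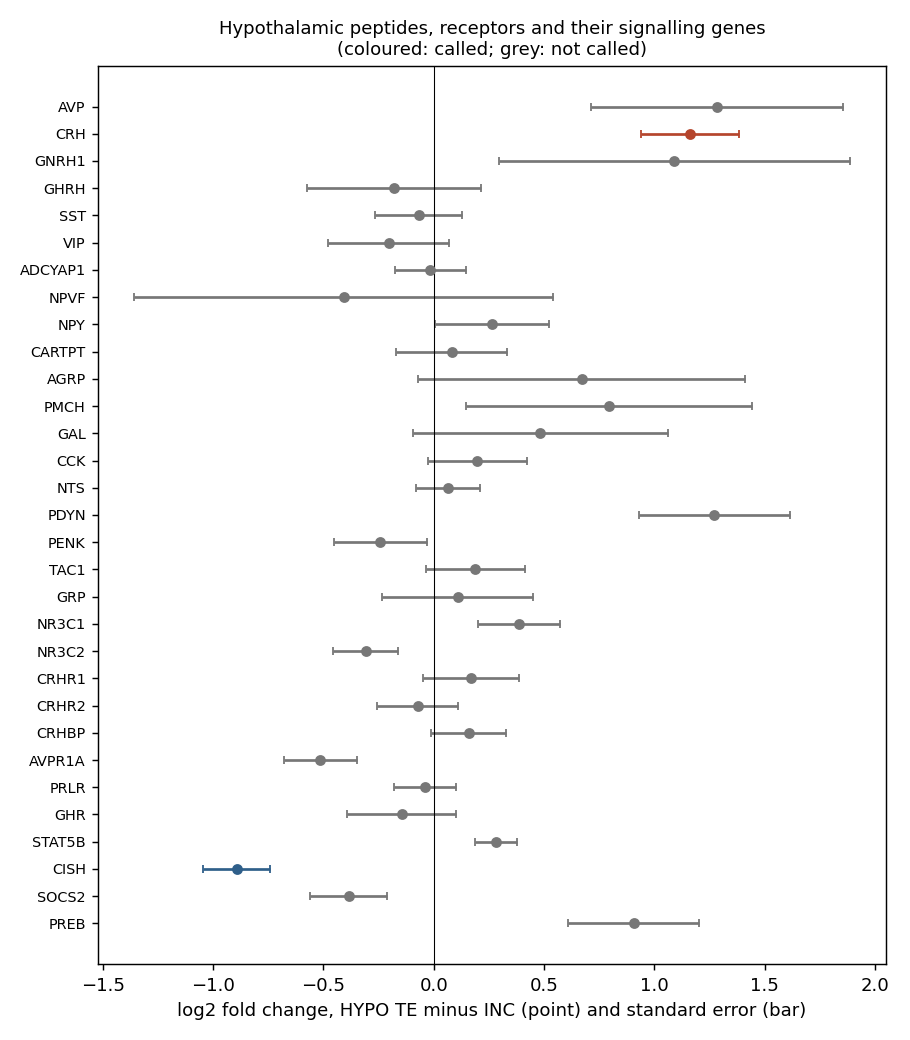
Log2 fold changes in HYPO, TE minus INC, with their standard errors for peptides, receptors and signalling genes. CRH (red, 1.16) and CISH (blue, -0.89) are called, and the grey genes, AVP (1.28) and PDYN (1.27) among them, are not.

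Other systems gave no call among their list genes, each taken as its most abundant transcript. A glutamate decarboxylase 2-like transcript that did not stand for a list gene was called and is given below. Of 17 nonapeptide, prolactin and releasing hormone receptors, 15 sex steroid genes, 19 clock genes, 12 genes of thyroid hormone supply and deep-brain opsins, 24 GABA genes, 24 glutamate receptors, 27 monoamine and histamine genes, 11 neurotrophin genes, 26 cytosolic heat shock proteins and 30 chaperones of the endoplasmic reticulum, 0 passed limma's adjusted p of 0.05. Their median log2 fold changes were -0.08, 0.12, 0.08, 0.18, -0.08, 0.10, 0.03, 0.08, 0.15 and 0.10 in that order. Of all 32 gene lists other than markers, 13 had a median that changed sign when 1 library was left out, among them BCL6 corepressors, fatty acid desaturation, prolactin and JAK-STAT, proteasome, feeding peptides and glutamate receptors. That of thyroid hormone supply and opsins was 0.0053 with edgeR and -0.0078 with DESeq2, and -0.07 to 0.39 without 1 library. At an unadjusted p under 0.05 the heat shock list had 7 higher during TE and 1 during INC, and the chaperone list 6 and 1. GABBR1, a subunit of the metabotropic GABA receptor, was at 424 ± 61.8 and 213 ± 51.6 without overlap (1.01, adjusted p = 0.114). HSPA5, the main chaperone of the endoplasmic reticulum, was at 7983 ± 2519 and 4803 ± 665 (0.69, adjusted p = 0.0915), and MANF, a secreted protein of the same stress response, at 540 ± 96.1 and 350 ± 31.7 (0.61, adjusted p = 0.0646). Of the 81 candidate genes of aggression that the study had named, CRH was the 1 called, and the median of the list was 0.07.

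The 41 transcripts higher during INC below the limit had a mean over 27 libraries between 1.74 and 38.1, with a median of 4.35, and 15 of them were at 0 in all 4 TE libraries. Log2 fold changes ran from -3.57 to -1.84 with a median of -2.83. A group in which every library is at 0 gives only a bound, and 3 reads over the 4 TE libraries would be a normalized count of 0.874. A fold written as at least divides the mean of the INC females by that count. It takes the INC mean as exact, so the spread of the INC females is not in the bound. The values given here for PLCB4, APP, DDX17, GPR158, BRD7, EIF5B and NAP1L1 are those of a minor transcript of the gene, and the main transcripts follow in a later paragraph. The minor PLCB4 transcript, of a phospholipase C of G protein signalling, was at 0 in all TE females and at 4.23, 12.1, 8.32, 19.9 and 10.4 in INC females, at least 12.6-fold higher during INC (log2 fold change -3.44, limma adjusted p = 0.00564). The minor transcript of APP, the amyloid precursor protein, was at 0 in TE and 1.41, 9.09, 8.32, 21.9 and 24.2 in INC, at least 14.9-fold higher (adjusted p = 0.0101). The minor transcript of DDX17, an RNA helicase, was at 0 in TE and 1.41, 9.09, 15.6, 20.9 and 22.5 in INC, at least 15.9-fold higher (adjusted p = 0.0124). In these 3 genes INC female 85757 lay nearest to the TE females.

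Other transcripts at 0 in the TE libraries were GPR158, an orphan receptor of neurons, with 5.68 ± 2.29 in INC (at least 6.51-fold, limma adjusted p = 0.0123), a myomegalin-like transcript with 8.31 ± 5.5 (at least 9.51-fold, adjusted p = 0.0144), and a transcript matched to glutamate decarboxylase 2, an enzyme of GABA synthesis, with 4.8 ± 2.24 (at least 5.5-fold, adjusted p = 0.0144). SOX2, a factor of neural progenitors, was at 3.39 ± 1.41 (at least 3.88-fold, adjusted p = 0.046), a call lost with the block (0.064), edgeR (0.0555), DESeq2 (0.0562) and quantile scaling (0.064), and without any 1 of 8 of the 9 HYPO libraries. A TACC1-like transcript, of a centrosomal protein, was at 0, 2.29, 0 and 1.29 in TE and 7.04, 11.1, 17.7, 33.4 and 13 in INC (log2 fold change -3.22, adjusted p = 0.0124). BRD7, EIF5B, PTPRA, ZNF652 and NAP1L1 each had a count above 0 in 1 TE female, between 0.982 and 1.29, and log2 fold changes of -2.96, -2.78, -2.83, -2.64 and -3.54 (adjusted p from 0.0124 to 0.0146).

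Members of the gene lists other than markers in this group were TMSB4X and DSTN, both actin regulators, and RPS25. RPS25 was the 1 called of 71 cytosolic ribosome genes (list median -0.00065), but that list was split. At an unadjusted p under 0.05, 17 of the 71 were higher during TE and 16 during INC. The females did not overlap for 18, against 5.56% of all transcripts tested. Without the HYPO library of 85757, a fit that called 784 transcripts, 5 were called higher during TE and 14 during INC. Among markers, SOX2, given above, was the 1 called of 14 of ependyma, tanycytes and choroid plexus (list median -0.07). TMSB4X, thymosin beta-4, was at 9.82, 4.57, 2.61 and 1.29 in TE and 8.45, 53.5, 52, 88.8 and 82.2 in INC (log2 fold change -3.28, limma adjusted p = 0.0163). Its groups overlapped through INC female 85757, as did those of DSTN, destrin, at 6.06 ± 4.62 and 58.2 ± 38.4 (-2.95, adjusted p = 0.0494), and of RPS25 at 10.6 ± 5.24 and 54.1 ± 23.6 (-2.197, adjusted p = 0.046). With the block DSTN and RPS25 were not called (adjusted p of 0.0709 and 0.0652). CNP, an enzyme of myelin, was at 0 to 3.91 in TE and 1.41, 19.2, 29.1, 47 and 69.2 in INC, where 85757 again lay in the TE range, and did not pass (-3.08, adjusted p = 0.0571). Over the 41 transcripts, 85757 had the lowest INC value for 39. Of all transcripts with a mean under 50, its library had 6537 above 0. The other INC libraries had 7094 to 7270 and the TE libraries 6678 to 7018. The part of detection in these calls was not tested.

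Many of these transcripts shared their gene name with a transcript of far higher count, not corrected for length. Of the 41, 26 shared their gene name with a more abundant transcript, 24 distinct ones in all. The count of the minor transcript stood at a median of 0.343% of the main transcript's mean count. None of the 24 was called, 15 had log2 fold changes below 0 and 9 above, and their median was -0.07 beside the median of -0.0055 over all transcripts. The main transcript of APP was at 3191 ± 432 in TE and 3148 ± 306 in INC (log2 fold change 0.01, limma adjusted p = 0.98), that of DDX17 at 8948 ± 279 and 8924 ± 835 (0.01, adjusted p = 0.984), and that of PLCB4 at 1796 ± 330 and 1995 ± 122 (-0.17, adjusted p = 0.782). GPR158, EIF5B, BRD7 and NAP1L1 had main transcripts with log2 fold changes of -0.12, 0.02, 0.03 and -0.07. In 3 genes the most abundant transcript was itself low, and of these NCAM1, a neural adhesion molecule with a mean of 5.46, had the largest change and the lowest adjusted p of the 24 (-2.51, adjusted p = 0.0642). What kind of transcript each minor one is was not tested. The other 15 of the 41, TMSB4X, DSTN, RPS25 and SOX2 among them, had no other transcript under their gene name. Whether these genes have further transcripts under other names was not tested.

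**Figure D4:**
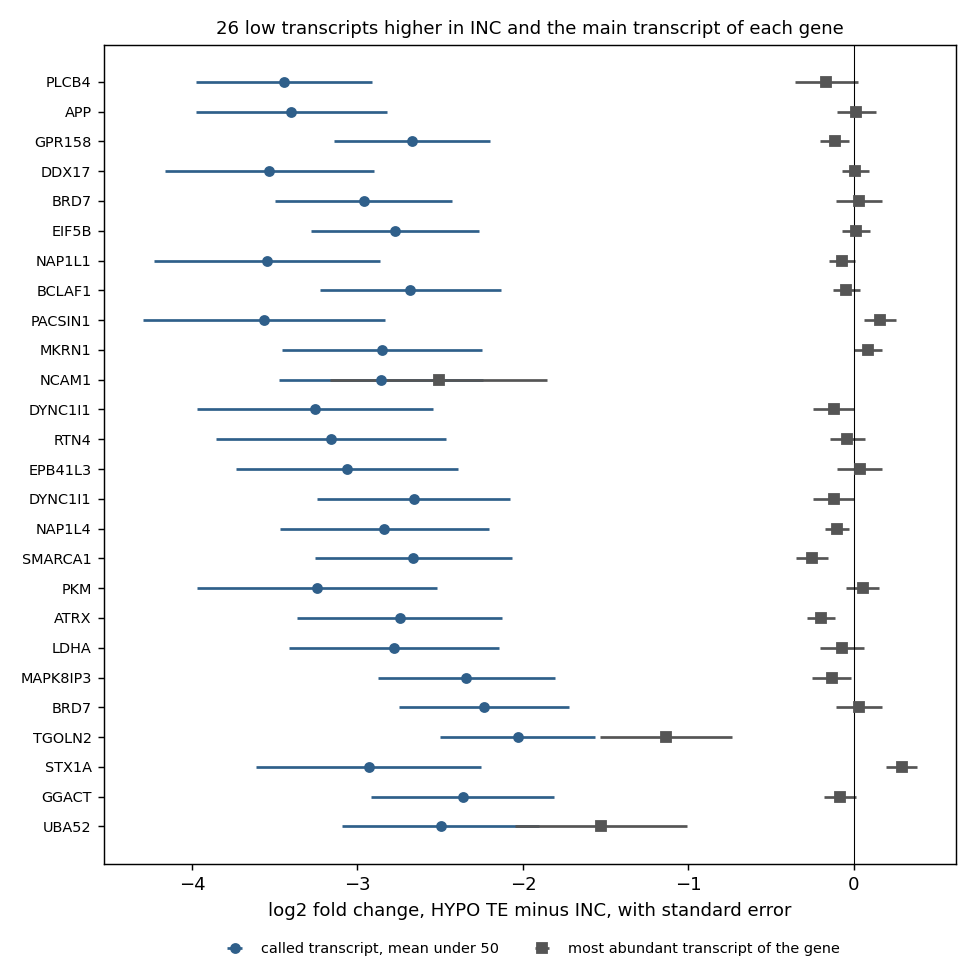
Log2 fold changes in HYPO, TE minus INC, with standard errors for the 26 low transcripts called higher in INC (blue circles) and for the most abundant transcript of the same gene (grey squares). The circles lie between -3.56 and -2.03, and the squares have a median of -0.07 and a range of -2.51 to 0.29.

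The low INC-higher transcripts were also high in some libraries of the other tissues. Summed over the 41, the normalized counts were 74.6, 42.3, 26.1 and 29.8 in the HYPO TE females and 135, 494, 644, 961 and 971 in the HYPO INC females. In HB the order was not the same, with 832, 1042, 552 and 137 in TE and 230 to 501 in INC. In VmT the TE libraries had 45.7 to 180, and the INC libraries 55.6 to 97.3 apart from 85757 with 361. Female 85757 thus had the lowest HYPO INC sum and the highest VmT INC sum. Of the 41 transcripts 1 had the same sign of log2 fold change in HB and 18 in VmT, and 0 were called in either tissue.

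**Figure D5:**
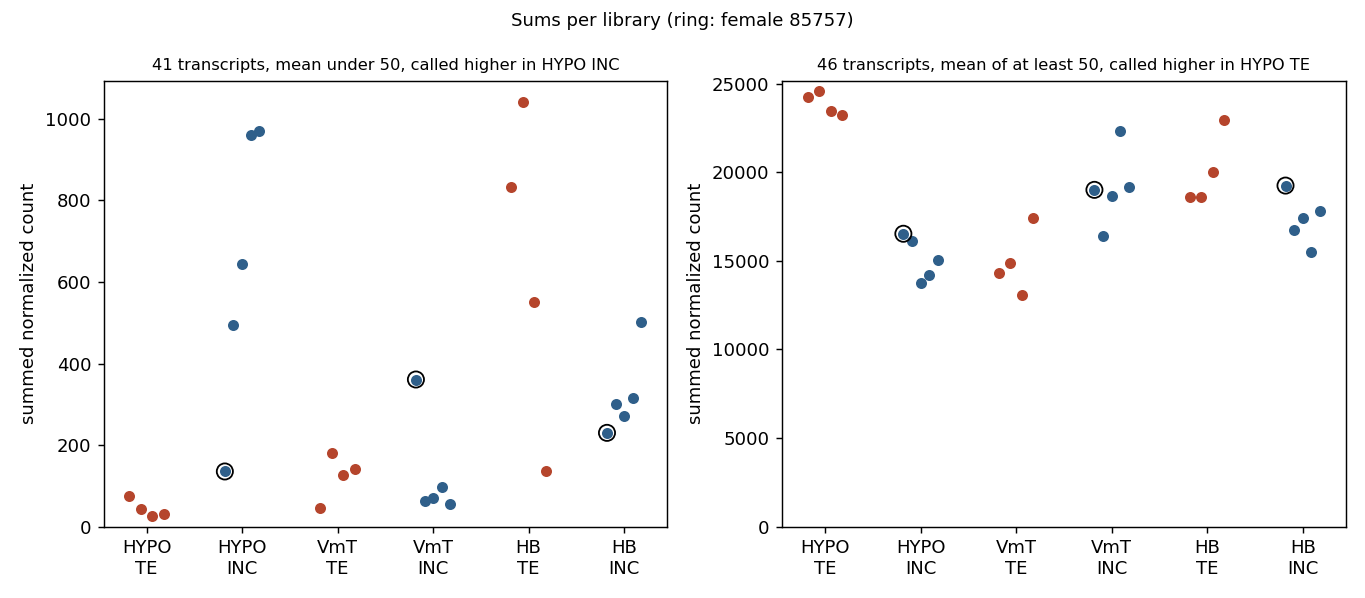
Summed normalized count per library of the 41 low transcripts called higher in HYPO INC (left) and the 46 abundant transcripts called higher in HYPO TE (right), in all 27 libraries (red TE, blue INC, ring female 85757). The HYPO libraries separate by stage because the transcripts were called there, while in HB 3 of 4 TE libraries exceed every INC library on the left.

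No stage difference was detected in the share of all low transcripts. Transcripts of mean under 50 held 1.46 ± 0.131% of the summed counts in the HYPO TE libraries and 1.47 ± 0.0686% in the INC libraries, a difference of -0.0075 percentage points (exact two-sided permutation test over 126 splits, p = 0.929). The smallest one-sided p these splits allow is 0.00794. With the limit at 20 the difference was -0.0252 (exact p = 0.429), and without 1 library at a time it ran from -0.0523 to 0.051.

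The 11 low transcripts higher during TE had log2 fold changes of 0.79 to 2.15. GHDC, a protein with a GH3 domain, was at 67.7, 58.3, 39.1 and 76.4 in TE and 26.8, 19.2, 28.1, 16.7 and 15.6 in INC, without overlap (1.46, limma adjusted p = 0.0124). CHTOP, of mRNA export, had a minor transcript at 53.8 ± 5.12 and 22.9 ± 4.83 (1.22, adjusted p = 0.0144), and its main transcript had the same sign at 543 ± 63.2 and 407 ± 23.1 without a call (0.41, adjusted p = 0.0714). RNF7, of cullin ubiquitin ligases, was at 48.3 ± 7.07 and 21.5 ± 5.55 (1.15, adjusted p = 0.046), while its main transcript was at 0.12 (adjusted p = 0.696). HES4, a transcriptional repressor of the Notch pathway, was at 9.81 ± 1.35 and 2.11 ± 1.01 (1.86, adjusted p = 0.0222), and the transcript of procollagen C-endopeptidase enhancer 1 at 7.42 ± 1.89 and 1.16 ± 1.28 (2.15, adjusted p = 0.0222). DMWD, PPP1R37 and HDDC3 had log2 fold changes of 1.93, 2.01 and 1.08 (adjusted p from 0.0392 to 0.0437). CAPN1, a calcium-dependent protease, was the 1 of the 11 with overlap, INC female 85757 at 56.3 lying above TE female 85674 at 46.1 (1.04, adjusted p = 0.046). MRPL43 and TIMM50 were given with the mitochondrial genes. With the female as a block 5 of the 11 were called. DMWD, PPP1R37, HDDC3 and RNF7 were not (limma adjusted p of 0.064, 0.064, 0.054 and 0.0652). Without 1 HYPO library at a time, 3, 0, 1 and 1 of the 11 stayed called for the TE females. For the INC females 11, 4, 2, 0 and 3 stayed called.

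The stage differences of the abundant TE-higher transcripts in the other tissues of the same females are given as a description. Of the 46, 44 had log2 fold changes above 0 in HB, with a median of 0.19 and no call. In VmT 5 were above 0, the median was -0.61, and 26 were called in the other direction. Of all transcripts tested in VmT 3.53% were called, and 3.1% were called higher during INC. SHISA4 was at -1.21 in VmT (limma adjusted p = 0.000851), KANSL2 at -1.07 (adjusted p = 0.000824) and TIMM10 at -0.81 (adjusted p = 0.01). Among the genes described first, DUSP4, with 0.08 in VmT (adjusted p = 0.881), had a HYPO minus VmT difference called at an adjusted p of 0.0432, and the differences of CRH (adjusted p = 0.287) and CISH were not called. Over all transcripts tested, 1159 (5.95%) had a HYPO minus VmT difference in stage effect, 1028 above 0 (5.28%) and 131 below 0 (0.673%), and 75 of the 100 were among them. Since the HYPO contrast chose the 100 and is part of that difference, nothing is read from the 75. For the HYPO minus HB stage difference 0 transcripts were called by limma, with 1213 at an unadjusted p under 0.05, 31 by edgeR and 155 by DESeq2, and limma called 236 without the HYPO library of 85757, 165 without the HB library of 85694 and at most 3 without any other library.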

How the data were processed

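Libraries were made by the study from polyadenylated RNA with a strand-specific kit, trimmed with Trimmomatic 0.36, mapped to a tree swallow transcriptome with Bowtie2 2.3.4.1 and kept as proper pairs with SAMtools 1.3.1, versions that are also in the submitters' processing notes. Transcripts with few reads in total had been dropped by the authors, who tested with DESeq2 1.16.1. The deposited values are a normalized signal, in which the authors had scaled the reads of each library by a size factor of its own, although the file is titled as FPKM. Whole reads were recovered, since 100% of low values in each library lay within 0.1 of a multiple of the library's step. Summed over the deposited transcripts they were 6001315 to 13710385 per library, fewer than the mapped read pairs the paper reports. This recovered depth limits low transcripts most, and floors of 3 reads cover counting error only.

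Of 30 samples in the labels, 3 had no column of their own and were not analysed here. Each HYPO library is 1 female. One VmT library of TE carries the numbers of 2 females and was treated as its own female. Authors' fold changes and p-values were not used.

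Values were taken to log2(value + 1) and tested with limma 3.58.1 in R 4.3.3 (trend, 27 libraries in 6 groups, contrast TE minus INC within HYPO) after keeping values of at least 1 in at least 4 libraries. The study used a negative binomial fit with tissue and stage, and limma was used in its place because the values are scaled. The share of low transcripts was tested by an exact permutation over females. Replicate numbers in the labels name the female, so libraries of different tissues are paired by female. The consensus correlation within female was 0.205, and the fit with the female as a block is given beside the list counts and calls it changed among the named list members. The code was tested on simulated data. Alternatives were other pseudocounts and filters, quantile scaling, array weights, HYPO alone, no variance trend, leaving out each library, a covariate made of the summed low transcripts, and, chosen after seeing the data, edgeR 4.0.16 and DESeq2 1.42.0 on the recovered reads, TMM scaling and the unresolved library as female 85691.

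The 100 transcripts, the limit of 50 and the gene lists were chosen with earlier results of these data known. Named are, at a mean of at least 50, all INC-higher calls and the 25 TE-higher calls of lowest p; below 50, the 12 INC-higher calls of lowest p and all TE-higher calls, with the main transcript of their gene; called list members; hormone and JAK-STAT list members with a HYPO mean of at least 50; and the 2 members of lowest p of other lists. One transcript that this rule names is not reported here. NCAM1, GNRH1, RAX, NKX2-1, HOXB3 and HOXB6 were named after their values were seen. Gene names came from protein match titles, which matched 957 of 1135 list genes, and a gene is its most abundant transcript. No reference genome was used here, so no sequence or position is given.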

Additional observations from a re-analysis of the deposited data

Results flagged for a closer look

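Among 228 groups of values checked, 21 (9.21%) held a female far from the rest of the group, by a rule that chance meets in about 5%. For 5 low transcripts it was the 1 TE female with a read, at 0.982 for BRD7, PTPRA and ZNF652, 1.29 for EIF5B and 1.14 for NAP1L1. Among called transcripts it was CRH in INC female 85840 at 112, the HEXIM1-like transcript in TE female 85694 at 180, MRPL43 at 57.3 and PPP1R37 at 8.83 in 1 TE female each, BRD8 at 532 in INC female 85840 and GIT1 at 597 in TE female 85674. Among peptides it was AVP in TE female 85694 at 963, VIP at 562 and ADCYAP1 at 1291 in TE female 85674, NPY at 78.8 and GAL at 40.7 in INC female 85899, and NMU at 239 in INC female 85889. The others were SOCS2 at 72.6, TYK2 at 338, STAT6 at 96.4 and NR3C2 at 114.

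For 43 transcripts the stage difference was called apart from that in VmT (limma, Benjamini-Hochberg), among 5.95% of all transcripts tested. These 43 are from the HYPO calls named by lowest p or as all calls of their level and direction. Other named list members, RXRA, GIT1 and ALDOC among them, also had such a difference and are not counted in the 43. Since the HYPO contrast chose the 43, this is a description. The HYPO minus VmT difference in log2 fold change was 2.15 for SHISA4, 1.79 for KANSL2, 2.44 for HDDC3, 1.61 for TUBA8, 1.19 for STX5, 1.65 for NDUFS8, 1.32 for ACTL6B and 1.21 for DTX4. It was 1.74 for TIMM10, 2.28 for RBM4B, 1.63 for WSCD2, 1.56 for MRPL43, 1.20 for ILF2, 1.21 for COX5B, 1.37 for the HEXIM1-like transcript, 1.15 for LGI3 and 3.67 for the procollagen C-endopeptidase enhancer. For TIMM50, GHDC, FASTK, CHTOP, MARCKSL1, DMWD, HES4, TMEM59L and CAPN1 it was 2.24, 2.14, 1.67, 1.80, 2.202, 3.13, 2.59, 1.11 and 1.52. SRRT, RNF7, MTFR1L, PPP1R37, DUSP4 and HIP1 had differences of 0.86, 1.53, 0.45, 2.22, 0.77 and 0.43. Below 0 it was -3.85 for PLCB4, -3.33 for GPR158, -3.51 for PTPRA, -3.09 for ZNF652, -3.48 for the myomegalin-like transcript, -3.36 for APP, -3.91 for NAP1L1, -3.23 for the TACC1-like transcript, -2.94 for BRD7, -3.44 for DDX17 and -2.37 for EIF5B. The values for CHTOP, RNF7, PLCB4, GPR158, APP, NAP1L1, BRD7, DDX17 and EIF5B are those of the minor transcripts.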

How the results depend on the processing

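The count of 100 called transcripts, with 46 of mean at least 50 higher during TE and 41 of lower mean higher during INC, moved by over 1.5 times under several alternatives. In that order it was 236, 135 and 62 with HYPO alone, 49, 18 and 21 with no variance trend, 725, 243 and 324 with array weights, 923, 254 and 526 when all 3 libraries of bird 85757 were dropped, and 414, 155 and 184 with DESeq2, chosen after seeing the data. Tested among transcripts of mean at least 50 alone, 25 were called, 23 of them higher during TE. A covariate made of the summed low transcripts turned the 46 into 74. Fitting the female as a block gave 40, 18 and 15, and 53, 28 and 17 with the unresolved library paired as female 85691. Leaving out each library gave 5 to 784, 2 to 209 and 1 to 471. The cause of these shifts was not tested. Pseudocounts, no filter, quantile and TMM scaling and edgeR kept the count within 80 to 107, and 0 of the 100 changed sign. The transcripts called were not all the same ones. Of the 100, 79 stayed called with edgeR, 86 with quantile scaling and 80 with TMM scaling. With a pseudocount of 5 it was 88, and with HYPO alone 74. Of the 41 low INC-higher transcripts 30, 34, 36, 29 and 28 stayed called, in that order. The HYPO minus VmT count of 1159 became 715 at a mean of at least 50 and 906 to 1484 without 1 library. The HYPO minus HB count of 0 became 3 in the 2 tissues alone, 3 under either block, 143 with array weights, 257 without female 85757, 31 with edgeR, 155 with DESeq2 and 0 to 236 without 1 library. Over single named transcripts and all alternatives, 533 values were no longer called and 168 were newly called. The difference in the share of low transcripts kept an exact p of at least 0.321 at every limit and without any library. At 6001315 recovered reads or more a library, transcripts of a few reads set the limit of what could be compared.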

Other observations

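Single marker genes of other cell types, chosen as members of lowest p of their lists, separated the stages without a call. OLIG2, a factor of the oligodendrocyte lineage, was at 101, 80, 168 and 122 in TE and 42.3, 61.6, 23.9, 33.4 and 51.9 in INC (log2 fold change 1.46, limma Benjamini-Hochberg adjusted p = 0.0617). CLDN5, the tight junction protein of brain endothelium, was at 56.6 ± 12.2 and 25.1 ± 9.7 (1.21, adjusted p = 0.0628), and ACVRL1, an endothelial receptor, at 87 ± 24.6 and 44.8 ± 11 (0.94, adjusted p = 0.0582). ALDOC, an aldolase of astrocytes, was at 17194 ± 1600 and 12767 ± 1284 (0.43, adjusted p = 0.0571), and SYP, a protein of synaptic vesicles, at 176 to 212 in TE and 84 to 152 in INC (0.95, adjusted p = 0.0959). The ranges of the TE and INC females did not overlap in these 5 genes, chosen for low p, beside 5.56% of all transcripts tested. Of 13 astrocyte markers 8 had log2 fold changes above 0 and 5 below, and 1 was without overlap. Of 17 markers of endothelium and mural cells 12 were above 0 and 5 below, and 2 were without overlap. The neuron and oligodendrocyte lists were divided, since 8 of 15 neuron markers had log2 fold changes above 0 and 7 below, with 4 and 5 at an unadjusted p under 0.05 in the TE and INC directions, and of 13 oligodendrocyte markers 7 were above 0 and 6 below, CNP at -3.08 among them. VCAN, a matrix proteoglycan of oligodendrocyte precursors, went the other way, at 248 ± 96.2 and 399 ± 34.8 (-0.76, adjusted p = 0.0714), with TE female 85694 in the INC range. The summed levels of the whole lists overlapped between stages, at 55594 to 68006 and 53890 to 57558 for the 13 astrocyte markers found, 4529 to 6871 and 4629 to 5476 for 17 of endothelium and mural cells, 26662 to 49601 and 30734 to 46330 for 13 of oligodendrocytes, and 47509 to 55405 and 48248 to 57437 for 15 of neurons.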
